A study of Homo sapiens with 6 samples.

Results

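The protocadherins are the largest family of cadherin-like adhesion receptors, and their RNA was compared between WT and TOP3B knockout HT1080 cells. HT1080 is a human fibrosarcoma cell line. Topoisomerase III-beta, the product of TOP3B, relaxes DNA and acts on RNA, and the study set out to examine its role in R-loops and transcription. Total RNA depleted of ribosomal RNA was sequenced from 3 WT libraries and 3 libraries of the knockout line E2-2, which was made with CRISPR and a guide to exon 2 of TOP3B. The labels give no treatment or time course for either group, and since the knockout is 1 line, an effect of the genotype and a property of that line cannot be told apart. Members were chosen by gene symbol alone: PCDH followed by a number, or by the letters and numbers of the alpha, beta or gamma clusters. The pattern matched 61 symbols. PCDH11X, which has a near-identical copy on the Y chromosome, and PCDHA14, a pseudogene in RefSeq, were left out, leaving 59 of 35820 genes. These were 15 alpha, 12 beta, 12 gamma A, 7 gamma B and 3 gamma C genes and 10 genes outside the clusters.

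Clustered protocadherins lie in 3 neighbouring arrays on chromosome 5, and each neuron is known to use its own small set of them as a surface identity code. In the alpha and gamma arrays a promoter stands before each large variable exon, which encodes the extracellular domain, the membrane span and a short tail, and each variable exon is spliced to constant exons that encode a shared cytoplasmic end. Beta genes are single exons without a constant part. The unclustered members, 3 delta-1 genes, 5 delta-2 genes and the other two, PCDH12 and PCDH15, have promoters of their own. Delta protocadherins act in cell sorting, axon guidance and the spread of epithelial and tumour cells.

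Library totals lay between 17919112 and 20475280 estimated counts. TOP3B itself was listed at 536, 376 and 469 counts in WT and 407, 383 and 361 in knockout, which was not a called difference (log2 -0.33 ± 0.19 SE, edgeR adjusted p = 0.342). A count over the whole gene does not read an edit in exon 2, so it does not check the labels. Labels call both groups fibrosarcoma cells, and VIM, the intermediate filament of mesenchymal cells, was at 11666 and 11525 CPM (counts scaled to a common library size) in WT and knockout. The 6 fibroblast markers summed to between 22571 and 23958 CPM in WT and between 13960 and 15279 in knockout. FN1 carried most of that gap, and THY1 was at 1 count over all libraries. FN1, COL1A1 and COL5A1 were called lower in knockout (log2 fold change -1.89 ± 0.15, -2.22 ± 0.35 and -1.80 ± 0.23, edgeR adjusted p = 0.00214, 0.0156 and 0.00830). S100A4 was lower without passing (-1.27 ± 0.37, edgeR adjusted p = 0.0893), and VIM was at -0.02 ± 0.06. The 5 neuronal markers summed to between 34.2 and 44.9 CPM in WT and between 22.2 and 26.2 in knockout, with no marker at 0 in every library. The 4 epithelial markers summed to between 105 and 116 CPM in WT and between 108 and 129 in knockout, and the 2 endothelial markers in the table never exceeded 2.22 CPM. The part of these marker differences in the protocadherin results was not tested. The labels do not tell whether replicates were grown apart, and if they were not, the p-values reflect technical spread alone.

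Constant exons that code over their whole length are shown first, because a read from the shared end cannot be given to 1 member. Exons that code only in part were not searched. Sequences are from GENCODE v29 on GRCh38, plus strand, with capitals marking bases that are the same at that position in the alpha and gamma exons. The first pair is 59 bases long at chr5:140978949-140979007 (alpha) and chr5:141494807-141494865 (gamma).
alpha constant exon, 59 bases: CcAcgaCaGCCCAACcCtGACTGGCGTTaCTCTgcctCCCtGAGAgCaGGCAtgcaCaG
gamma constant exon, 59 bases: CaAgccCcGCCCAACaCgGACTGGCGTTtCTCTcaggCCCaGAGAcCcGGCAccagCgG
The second pair is 89 bases long at chr5:140982475-140982563 (alpha) and chr5:141505393-141505481 (gamma).
alpha constant exon, 89 bases: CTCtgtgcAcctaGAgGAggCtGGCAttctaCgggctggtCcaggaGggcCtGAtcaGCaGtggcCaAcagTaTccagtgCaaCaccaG
gamma constant exon, 89 bases: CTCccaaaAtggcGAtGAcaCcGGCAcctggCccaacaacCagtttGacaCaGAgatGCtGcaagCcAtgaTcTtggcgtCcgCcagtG
The shorter pair shared 39 of 59 positions and the longer pair 29 of 89. All 15 alpha members carried the alpha exons and all 22 gamma members the gamma exons, so the alpha and gamma values below are estimates of how such reads were divided.

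The variable promoters are shown because longer motifs around the letters CGCT recur among windows of the same cluster. RefSeq windows of 300 bases (GRCh38.p14, 250 before to 50 after the start site) were found for 52 members and searched on both strands. The 3 longer motifs were written down after the windows had been looked at, so their spread over the clusters is not a test. ATGTCGCT was in 9 of 13 alpha windows, GGTGGCGCT in 10 of 10 beta windows and CGCCGCTGT in 5 of 11 gamma A and 4 of 7 gamma B windows, each in 0 windows of the other clusters. In gamma C windows the gamma motif was found in 0 of 2. Over all 35116 windows the shares of the 3 motifs were 0.234%, 0.501% and 0.604%. CGCT, which all 3 contain, was in 70.0% of all windows. The stretches below, upstream of the start site, belong to members whose RNA is described next, with 1 plus-strand match of the motif in capitals. The PCDHGC3 stretch holds a further cgct, left in lower case.
PCDHGA1, chr5:141330391-141330449, plus strand: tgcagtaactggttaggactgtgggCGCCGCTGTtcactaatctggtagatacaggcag
PCDHGB1, chr5:141350013-141350071, plus strand: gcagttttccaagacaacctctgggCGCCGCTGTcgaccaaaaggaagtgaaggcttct
PCDHGA9, chr5:141402702-141402760, plus strand: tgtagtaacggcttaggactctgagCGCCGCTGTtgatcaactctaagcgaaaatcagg
PCDHGB2, chr5:141359912-141359965, plus strand: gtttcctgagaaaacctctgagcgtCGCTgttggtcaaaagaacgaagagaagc
PCDHGC3, chr5:141475871-141475924, plus strand: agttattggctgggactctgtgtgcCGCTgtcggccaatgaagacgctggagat
PCDHA1, chr5:140786073-140786130, plus strand: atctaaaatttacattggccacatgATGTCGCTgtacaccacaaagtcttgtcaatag
PCDHB13, chr5:141213851-141213909, plus strand: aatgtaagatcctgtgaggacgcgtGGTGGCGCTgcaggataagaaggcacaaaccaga
Among the gamma members that fell, PCDHGA1, PCDHGA9 and PCDHGB1 held the full gamma motif in their windows and PCDHGB2 only CGCT. A match is a description of the letters and not a binding site.

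These HT1080 libraries held RNA of part of the family at low levels. Between 32 and 38 members reached 10 counts in the WT libraries and between 28 and 31 in the knockout libraries. In all 6 libraries 25 members did so. PCDHA1, PCDHGA9, PCDHGB3, PCDHGB5 and PCDHGB7 reached 10 counts in each WT library but not in each knockout library. PCDHGA11 did the reverse, with 9 counts in WT replicate 1. Members listed at 0 numbered 20, 19 and 16 in WT and 24, 22 and 24 in knockout. The matching shares over all genes are not given here, so these numbers are not read as particular to the family. A 0 in this table is not proof of silence: RAD21, a cohesin subunit that dividing cells need, was listed at 0, 0 and 13 counts in WT and 6, 0 and 0 in knockout.

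**Figure D1:**
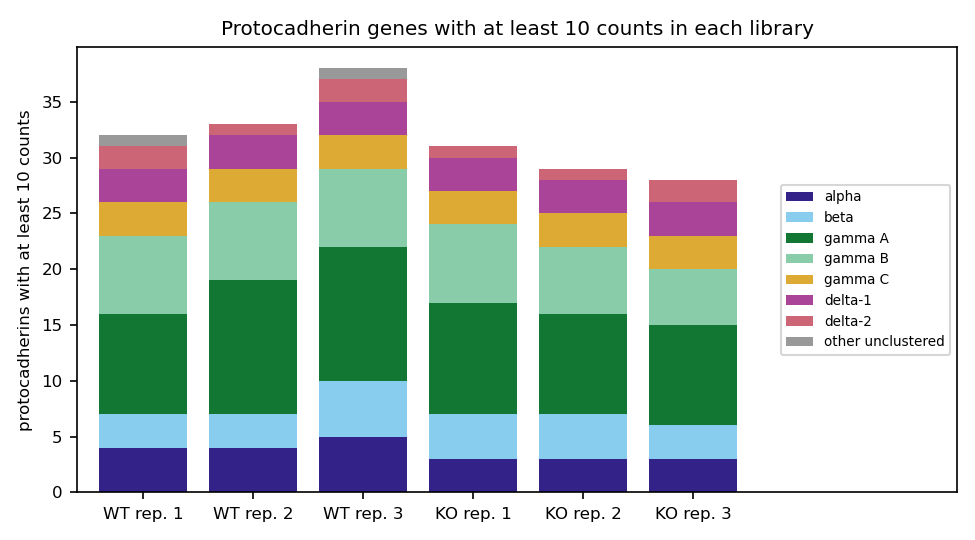
Bars give the number of protocadherin genes with at least 10 estimated counts in each of the 6 libraries, stacked by family. WT bars reach 32, 33 and 38 genes and knockout bars 31, 29 and 28, with gamma A and gamma B the tallest segments.

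Levels per length were ordered on the RPKM scale, whose deposited values divide by a length close to the genomic span of a gene's transcripts, introns included. That length was within 3% of the GENCODE span for 31 of the 33 tested members and a median of 15.8 times the spliced length, so long genes are placed low in this order. PCDH1 was highest in WT, at 5.74 ± 0.197 RPKM (SD, n = 3), followed by PCDHGC3 at 2.54 ± 0.148, PCDHB13 at 1.40 ± 0.107 and PCDHGB4 at 0.823 ± 0.159. PCDHB12 (0.660 ± 0.142 RPKM) and PCDH18 (0.579 ± 0.103 RPKM) came next, separated from each other by less than the SD of either. In knockout PCDH1 was again first at 7.79 ± 0.170 RPKM, PCDHGC3 second at 2.28 ± 1.11 and then PCDHB13 at 0.930 ± 0.151. PCDH18 stood at rank 6 in WT and at rank 9 in knockout, at 0.183 ± 0.0969 RPKM.

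Of the 59 members, 33 passed the filter on low counts and were tested. In knockout cells 6 of the 33 fell and 0 rose at an adjusted p under 0.05. Over all 13965 genes tested, 7.84% were called, 4.63% lower and 3.21% higher in knockout. The 6 were the gamma genes PCDHGA1, PCDHGA9, PCDHGB1 and PCDHGB2, the alpha gene PCDHA1 and the delta-1 gene PCDH7. At an unadjusted p under 0.05 the counts were 15 lower (12.8% of all genes) and 1 higher (11.9%). DESeq2 called 13 members lower and 1 higher, beside 9.19% and 6.56% of all genes and 15.7% in both directions. All 3 knockout libraries lay below all 3 WT libraries for 18 tested members (17.1% of all genes) and above them for 1 member, PCDH1 (16.5% of all genes). A fitted log2 fold change below 0 was found for 27 of the 33, against 46.3% of all genes. The median over the 33 was -0.83, where the median over all genes was 0.05. These counts need care: 5 tested members (PCDHA1, PCDHGA9, PCDHGB3, PCDHGB5 and PCDHGB7) cleared the filter in 3 WT and fewer than 3 knockout libraries and 0 in the reverse pattern, and overlapping gamma genes share reads. PCDHA1 and PCDHGA9, which are among the 6 that fell, cleared it in 0 knockout libraries. They entered the test through WT alone, and a member that enters so can only come out lower.

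**Figure D2:**
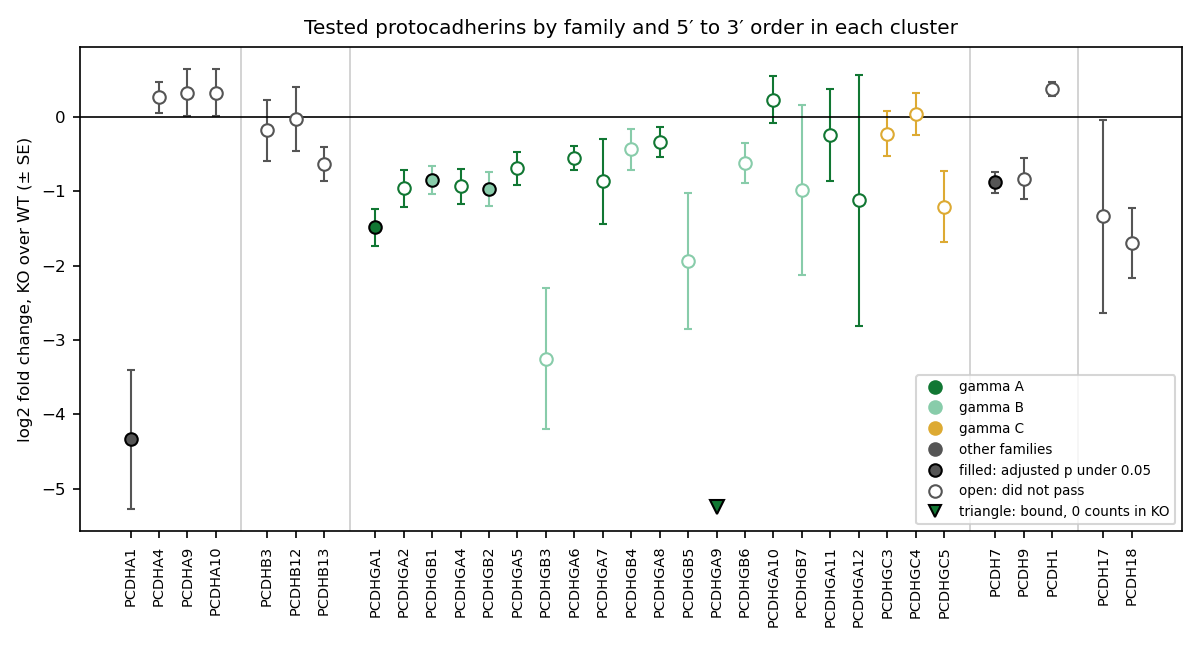
Each point is the fitted log2 fold change (knockout over WT) of 1 tested member, with bars of ± 1 SE, ordered within each cluster from 5′ to 3′ and coloured by gamma class. Filled points passed the test; the triangle for PCDHGA9 marks a bound, since its knockout libraries were listed at 0. Most gamma A and gamma B points lie below 0, while PCDHA4, PCDHA9, PCDHA10 and PCDH1 lie above it.

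Gamma A and gamma B genes encode variable ectodomains of the same build, each binding its own kind across the cell contact, and they alternate along the array. The 4 that fell start between position 141330571 of chromosome 5, the start of PCDHGA1, and 141402932, the start of PCDHGA9. Every gamma gene spans both gamma constant exons shown above, and PCDHGA1 (chr5:141330571-141512981) contains the other gamma genes within its span.

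PCDHGA1 (ENSG00000204956.5), the first gene of the array, had 355, 304 and 383 counts in WT and 96, 165 and 126 in knockout. Its mean fell from 18.2 ± 2.47 to 6.49 ± 1.79 CPM (SD, n = 3), which is 2.79-fold lower (log2 -1.48 ± 0.25 SE, edgeR adjusted p = 0.0187). The groups did not overlap, and the highest knockout library stood well under the lowest WT library.

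PCDHGA9 (ENSG00000261934.2, chr5:141402932-141512979) had 27, 61 and 22 counts in WT and was listed at 0 in the 3 knockout libraries. Against a floor of 3 counts over the knockout group it was at least 38.0-fold lower, a bound that covers counting error only, and it passed with an edgeR adjusted p of 0.0186. WT replicate 2 held most of its WT counts. In CPM its WT mean was 1.90 ± 1.05.

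PCDHGB1 (ENSG00000254221.2, chr5:141350102-141512979) had 294, 290 and 401 counts in WT and 213, 193 and 160 in knockout. It fell 1.80-fold, from 17.1 ± 2.53 to 9.46 ± 1.17 CPM (log2 fold change -0.85 ± 0.19, edgeR adjusted p = 0.0408). PCDHGB2 (ENSG00000253910.2, chr5:141360042-141512979) had 278, 441 and 295 counts in WT and 208, 152 and 176 in knockout. It fell 1.96-fold, from 17.6 ± 4.20 to 8.96 ± 1.29 CPM (log2 fold change -0.97 ± 0.22, edgeR adjusted p = 0.0480). Both genes were lower in every knockout library than in any WT library.

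**Figure D3:**
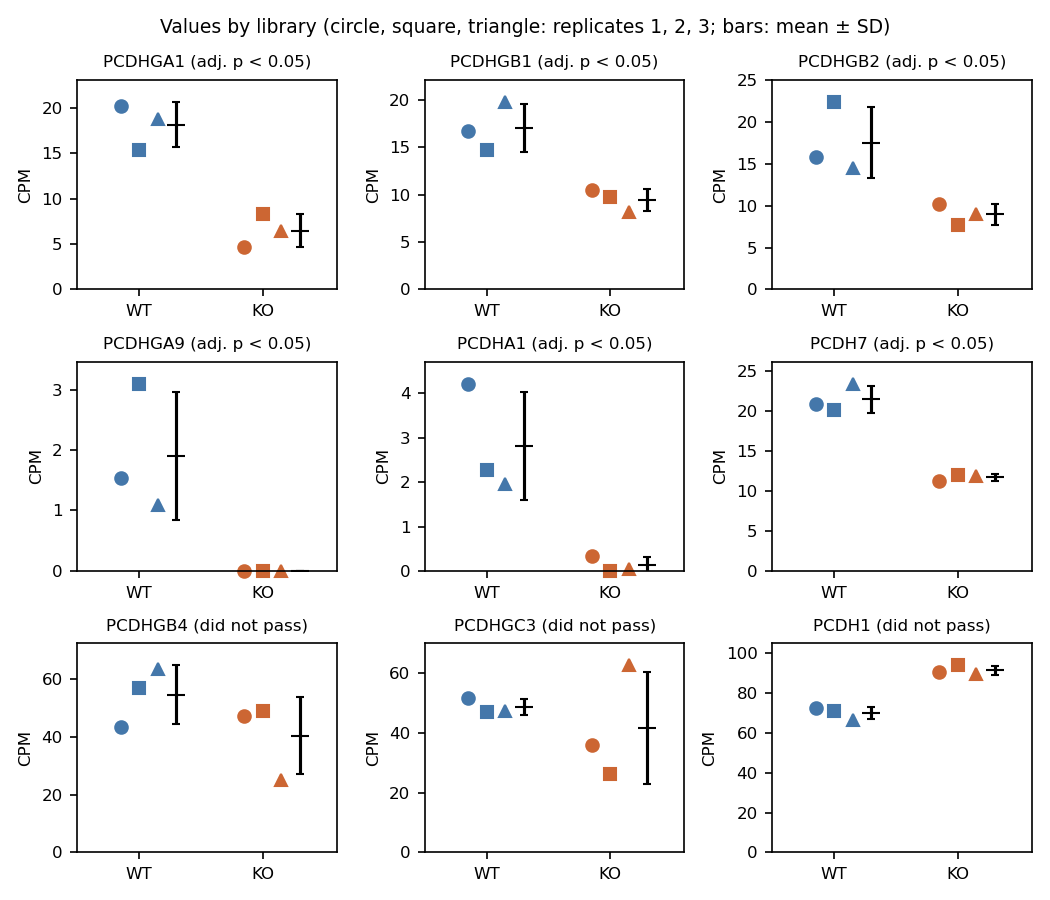
CPM values (TMM-scaled, axes from 0) of 9 members in each library, with the mean ± SD (n = 3) beside the points. The 6 members that passed have separate groups, PCDHGA9 lies at 0 in knockout, and knockout replicate 3 is low for PCDHGB4 and high for PCDHGC3.

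The other gamma A genes did not pass. Of these 9, 5 had separate groups, beside 17.1% of all genes with every knockout library below every WT library. PCDHGA2 had 124, 198 and 242 counts in WT and 103, 109 and 85 in knockout (log2 fold change -0.96 ± 0.25, adjusted p = 0.0685 by edgeR). PCDHGA4 had 167, 189 and 270 against 137, 104 and 97 (-0.93 ± 0.23, adjusted p = 0.0579 by edgeR). PCDHGA5 had 176, 196 and 230 against 99, 141 and 145 (-0.69 ± 0.22, adjusted p = 0.115 by edgeR). These 3, whose knockout libraries lay below WT, and PCDHGA6 passed under DESeq2. PCDHGA6 had 355, 365 and 411 counts in WT and 225, 282 and 292 in knockout (-0.55 ± 0.17, adjusted p = 0.0974 by edgeR). PCDHGA8, with 175, 203 and 279 against 190, 155 and 191 counts, was separate only after scaling (-0.34 ± 0.20, adjusted p = 0.357 by edgeR).

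Overlapping groups were found for 4 gamma A genes. PCDHGA7 had 28, 61 and 88 counts in WT and 13, 47 and 38 in knockout (log2 fold change -0.87 ± 0.57). PCDHGA10, with 60, 81 and 59 against 110, 79 and 56 counts, was the gamma A gene with a fitted value above 0 (0.23 ± 0.32). PCDHGA11 (9, 14 and 46 against 27, 16 and 16 counts) and PCDHGA12 (0, 42 and 18 against 28, 0 and 0 counts) varied more within groups than between them. Over the 11 tested gamma A genes 2 fell and 0 rose (4.63% and 3.21% of all genes), 9 did not pass, and the median log2 fold change was -0.87. PCDHGA9, 1 of the 2 that fell, had entered the test through WT alone.

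Among the 5 gamma B genes that did not pass, PCDHGB3 had the widest gap, with 109, 173 and 212 counts in WT and 32, 0 and 21 in knockout. The ratio of WT to knockout group totals, scaled for depth, was 9.66 with an exact 95% interval of 7.27 to 13.1 that covers counting error only, and the edgeR adjusted p was 0.0883 where DESeq2 gave 0.00523. PCDHGB5 had 36, 31 and 44 counts against 13, 17 and 0 (log2 fold change -1.94 ± 0.92, adjusted p = 0.250 by edgeR), and PCDHGB6 had 106, 89 and 117 against 78, 53 and 81 (-0.61 ± 0.27, adjusted p = 0.219 by edgeR). These 3 genes had separate groups, beside 17.1% of all genes with every knockout library below every WT library. The large errors of PCDHGB3 and PCDHGB5 go with a knockout library at 0. PCDHGB4, the gamma B gene with the most counts, had 762, 1121 and 1290 in WT and 959, 973 and 488 in knockout (-0.43 ± 0.28, adjusted p = 0.384 by edgeR). PCDHGB7 had 203, 198 and 136 in WT and 88, 198 and 0 in knockout (-0.98 ± 1.15, adjusted p = 0.637 by edgeR). For both, knockout replicate 3 was lowest and the groups overlapped. Over the 7 gamma B genes 2 fell and 0 rose (4.63% and 3.21% of all genes), and the median log2 fold change was -0.97. That median includes PCDHGB3, PCDHGB5 and PCDHGB7, which cleared the filter in 3 WT and 2 knockout libraries.

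The gamma C genes stand at the 3′ end, are not used in the stochastic way of the others, and include PCDHGC4, known for its need in the survival of neurons. PCDHGC3 (chr5:141475947-141512979), the gamma gene highest per length here, had 908, 925 and 959 counts in WT and 733, 520 and 1222 in knockout. WT was tight at 48.6 ± 2.70 CPM and knockout wide at 41.6 ± 18.8 CPM, with knockout replicate 3 above every WT library and the other two below (log2 fold change -0.22 ± 0.30, edgeR adjusted p = 0.684). Without that replicate it passed as lower, at -0.65 and an edgeR adjusted p of 0.0484. PCDHGC4 had 52, 71 and 60 counts against 50, 72 and 73 (0.05 ± 0.28), with overlapping groups. PCDHGC5 had 57, 113 and 89 against 40, 17 and 58 (-1.20 ± 0.48, adjusted p = 0.182 by edgeR), with separate groups after scaling.

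Knockout replicate 3 also divided the gamma counts differently. PCDHGB4 took 17.8%, 21.4% and 22.6% of all gamma counts in WT and 27.9%, 29.5% and 14.7% in knockout. PCDHGC3 took 21.2%, 17.6% and 16.8% in WT and 21.3%, 15.8% and 36.8% in knockout. In that library PCDHGC3 held the larger share, and in the other knockout libraries PCDHGB4 did. Whether the RNA or the division of shared reads differed was not tested.

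Alpha genes encode receptors that pair with other clustered protocadherins at the membrane, and only 4 of the 15 were tested. PCDHA1 (ENSG00000204970.9, chr5:140786136-141012347), the first of the array, had 74, 45 and 40 counts in WT and 7, 0 and 1 in knockout. It fell from 2.82 ± 1.22 to 0.132 ± 0.186 CPM (edgeR adjusted p = 0.0395), having entered the test through WT alone. The ratio of WT to knockout group totals was 20.6, with an exact 95% counting interval of 10.2 to 48.6. The other 3 tested alpha genes did not pass. PCDHA4, the most abundant in counts, had 153, 212 and 254 in WT and 303, 253 and 213 in knockout (log2 fold change 0.27 ± 0.21, adjusted p = 0.468 by edgeR). PCDHA9 had 52, 43 and 47 against 45, 66 and 75 (0.33 ± 0.32), and PCDHA10 had 55, 63 and 101 against 72, 93 and 117 (0.33 ± 0.32). All 3 had overlapping groups.

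The beta genes are single-exon receptors whose values do not rest on shared exons. PCDHB13 (ENSG00000187372.11, chr5:141213919-141218979) had 125, 135 and 157 counts in WT and 108, 99 and 72 in knockout. Its groups were separate at 7.23 ± 0.449 and 4.66 ± 0.861 CPM, and it did not pass (log2 fold change -0.63 ± 0.23, edgeR adjusted p = 0.143). PCDHB12, with 39, 52 and 34 against 22, 53 and 52 counts, had a fitted log2 fold change of -0.03 ± 0.43, which changed sign when library size alone was used for scaling. PCDHB3, with 16, 11 and 20 against 12, 18 and 13 counts, was at -0.18 ± 0.41. Both overlapped between groups, and 0 of the 3 tested beta genes passed.

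Of the 3 delta-1 genes PCDH7 fell, and PCDH1 and PCDH9 did not pass. PCDH7 (ENSG00000169851.15, chr4:30720415-31146805), an adhesion receptor best known in ectoderm and in metastatic tumour cells, had 368, 398 and 476 counts in WT and 228, 238 and 233 in knockout. It fell 1.84-fold, from 21.5 ± 1.69 to 11.7 ± 0.427 CPM (log2 fold change -0.88 ± 0.14, edgeR adjusted p = 0.0166). Its groups were separate and the knockout libraries were within a few counts of each other. The 493 other tested genes of chromosome 4 had a median log2 fold change of -0.19, below the 0.05 of all genes.

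PCDH1 (ENSG00000156453.13, chr5:141853111-141879246, minus strand), an adhesion receptor of airway epithelium that lies 3′ of the gamma array, had 1271, 1404 and 1356 counts in WT and 1846, 1865 and 1748 in knockout. The means were 70.1 ± 2.99 and 91.4 ± 2.28 CPM, with every knockout library above every WT library. Its 1.30-fold difference (log2 0.38 ± 0.09) did not pass under edgeR (adjusted p = 0.0552) and did under DESeq2 (adjusted p = 0.00148). PCDH9 (chr13:66302834-67230445), a receptor of developing nervous tissue, had 273, 280 and 247 counts in WT and 153, 107 and 208 in knockout. Its groups were separate, at 14.0 ± 1.71 and 7.85 ± 2.64 CPM, without passing (log2 fold change -0.83 ± 0.27, edgeR adjusted p = 0.121), and DESeq2 gave an adjusted p of 0.0452. The 244 other tested genes of chromosome 13, which also holds PCDH17, had a median log2 fold change of 0.19, with 12 called lower and 7 higher.

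Of the 5 delta-2 genes, several of which are known to bind the WAVE actin regulator through their tails, 2 were tested. PCDH18 (chr4:137518918-137532494, minus strand), which binds the adaptor DAB1, had 129, 111 and 109 counts in WT and 51, 48 and 14 in knockout. The groups were separate at 6.11 ± 1.08 and 1.88 ± 1.01 CPM, a 3.24-fold difference that did not pass (log2 fold change -1.70 ± 0.47, edgeR adjusted p = 0.0802) and passed under DESeq2 (adjusted p = 0.00899). Without knockout replicate 3, its lowest library, the log2 fold change was -1.32 and the edgeR adjusted p 0.0251. PCDH17, with 31, 0 and 48 counts in WT and 2, 8 and 22 in knockout, overlapped between groups (-1.34 ± 1.30).

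The 26 members that were not tested are accounted for here. PCDH8, PCDH10, PCDH19, PCDHAC2, PCDHB5, PCDHB9, PCDHB11, PCDHB15 and PCDHB16 were listed at 0 in all 6 libraries. The other 17 had counts in at least 1 library. PCDHGA3, near the 5′ end of the gamma array, had 0, 84 and 47 counts in WT and was listed at 0 in knockout, which over the groups is at least 45.3-fold lower against a floor of 3 counts. Since 1 WT library was also at 0, its groups touched. PCDH15, a tip-link protein of inner ear hair cells, had 10, 7 and 19 counts in WT and 0, 2 and 4 in knockout, a ratio of group totals of 6.22 with an exact 95% counting interval of 2.60 to 18.1. PCDHA7 had 8, 8 and 9 counts against 0, 4 and 3. PCDHB14 (71 counts in WT replicate 3 and 30 in knockout replicate 1), PCDHB2 (39 counts in WT replicate 3) and PCDHB6 (26 counts in knockout replicate 2) were at 0 in their other libraries. The rest, PCDH12, an endothelial receptor, with PCDHB4, PCDHAC1 and the alpha genes PCDHA2, PCDHA3, PCDHA5, PCDHA6, PCDHA8, PCDHA11, PCDHA12 and PCDHA13, had at most 13 counts in any library.

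Sums over each class avoid the question of how shared reads were divided within a class, and they have no test. Division between gamma A, gamma B and gamma C, which carry the same constant exons, still enters these sums. Gamma A summed to 84.1, 91.2 and 103 CPM in WT and 50.6, 55.3 and 53.5 in knockout, 1.75-fold lower. Gamma B summed to 102, 119 and 123 CPM in WT and 78.3, 79.8 and 47.4 in knockout, 1.67-fold lower. For both classes every knockout library lay below every WT library. Gamma C summed to 57.9, 56.2 and 54.5 CPM in WT and 40.5, 30.7 and 69.2 in knockout, so its groups overlapped through knockout replicate 3. The log2 ratio of the gamma C sums was -0.26 with that library and -0.66 without it.

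Alpha summed to 21.2 ± 2.22 CPM in WT and 21.4 ± 0.112 in knockout, and beta to 12.03 ± 3.26 and 8.50 ± 1.50. The low PCDHA1 counts were therefore not seen in the alpha total, in which PCDHA4 weighed most. The 10 unclustered genes summed to 114 CPM in both groups (SD 4.18 in WT and 1.18 in knockout, n = 3), with PCDH1 above and PCDH7 and PCDH9 below their WT values. As RPKM, which gives PCDH1 more weight, the unclustered sum had a log2 ratio of 0.32.

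**Figure D4:**
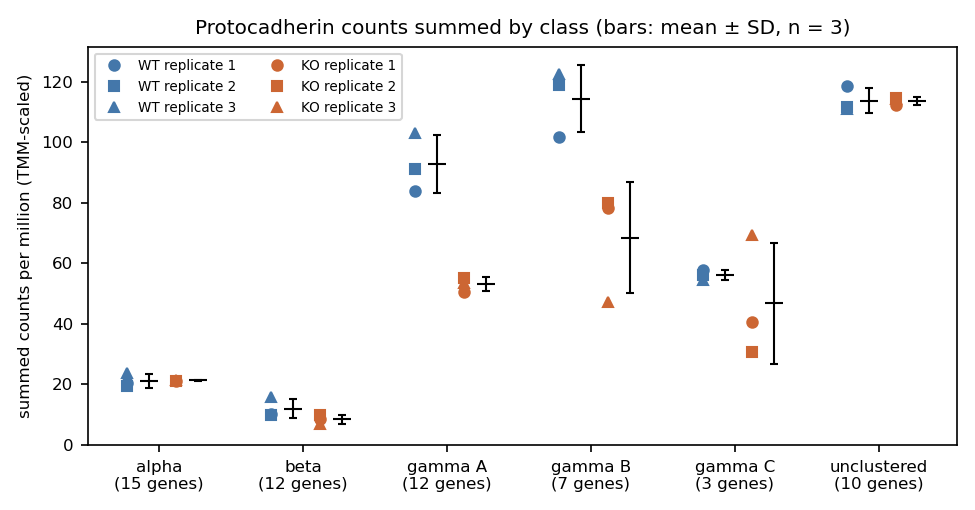
Summed CPM (TMM-scaled) of each protocadherin class in the 6 libraries, with the mean ± SD (n = 3) beside the points. Knockout points lie below WT for gamma A and gamma B and, narrowly, for beta. They overlap WT for gamma C, and for alpha and unclustered genes the WT and knockout means are close to each other.

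Fits without 1 WT library, or without knockout replicate 1 or 2, made fewer calls among members and over all genes. The fit without knockout replicate 3, described below, made more of both. When 1 WT library was left out, none of the 6 members passed under edgeR, and the highest adjusted p over the fits that left out a library was 0.0786 for PCDHGA1 and PCDH7, 0.0728 for PCDHGA9, 0.127 for PCDHA1, 0.139 for PCDHGB1 and 0.153 for PCDHGB2. Calls over all genes numbered 279, 223 and 256 without WT replicates 1, 2 and 3, against 1095 with all libraries. In those 3 fits the log2 fold changes kept their sign and much of their size, between -0.82 and -0.92 for PCDH7, -1.41 and -1.59 for PCDHGA1, -0.74 and -0.95 for PCDHGB1, -0.76 and -1.10 for PCDHGB2 and -3.95 and -4.54 for PCDHA1. PCDHGA9 stayed listed at 0 in knockout. Without WT replicate 1 the 1 member called was PCDHGA3, beside 279 calls of 14367 over all genes. The library left out was its WT library at 0, and with knockout listed at 0 it entered that fit through WT alone. Without knockout replicate 1 PCDHA1, PCDHGA1 and PCDHGA9 passed, and without knockout replicate 2 PCDHGA1, PCDHGA9 and PCDHGB3 did. Over all genes these fits made 388 calls of 14319 and 359 of 14365, in that order.

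Without knockout replicate 3, 7 of 36 tested members fell and 1 rose under edgeR, beside 7.84% and 5.39% of 14358 genes (13.2% in both directions). Those 7 were PCDH7, PCDH9, PCDH18, PCDHGA1, PCDHGA9, PCDHGB1 and PCDHGC3, and the 1 was PCDH1. For genes tested both with and without that library, the median was then -0.75 over members and 0.01 over all genes. PCDHA1 and PCDHGB2 did not pass without that library, at adjusted p = 0.0562 and 0.0547 by edgeR.

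Genes around protocadherin biology were read from lists. Of 21 tested regulators of the clustered promoters (cohesin, its loader and silencing factors), 0 rose and 0 fell under edgeR. Over all genes 3.21% rose and 4.63% fell. The 2 most abundant were TRIM28, a corepressor, at a log2 fold change of 0.10 ± 0.13, and PDS5B, a cohesin cofactor, at 0.35 ± 0.17, with adjusted p = 0.681 and 0.253 by edgeR. Without knockout replicate 3, PDS5B passed as higher (log2 fold change 0.50, adjusted p = 0.0137 by edgeR) and SETDB1, a histone methyltransferase of silent chromatin, as lower (-0.78, adjusted p = 0.0158 by edgeR). DESeq2 on all libraries called 2 of the list, PDS5A higher (0.46, adjusted p = 0.0391) and SETDB1 lower (-0.61, adjusted p = 0.0228). Over all genes 5.39% were called higher and 7.84% lower without knockout replicate 3, and 6.56% and 9.19% under DESeq2. REST was listed at 0 in every library, and 1 regulator of the list is not analysed here.

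The counts of the next 4 lists stand beside the 4.63% of all genes called lower and the 3.21% called higher, and with so few genes a list no difference from those shares is claimed. Of 19 tested partners and effectors 3 fell and 0 rose. FYN, a Src-family kinase that acts with several adhesion receptors, had 3871, 4497 and 4478 counts in WT and 2621, 2340 and 2358 in knockout (log2 fold change -0.86 ± 0.08, edgeR adjusted p = 0.00384). CTNNB1, the beta-catenin of classical cadherins, fell less (-0.63 ± 0.14, edgeR adjusted p = 0.0442). WASF1, a subunit of the WAVE complex, was the other one that fell (-0.52 ± 0.11, edgeR adjusted p = 0.0385). Of 7 tested proteases that cut protocadherins 1 fell, the gamma-secretase subunit APH1A (-0.60 ± 0.08, edgeR adjusted p = 0.00830).

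Of 17 tested genes beside the clusters on chromosome 5, 1 fell, the ubiquitin ligase RNF14 (log2 fold change -0.82 ± 0.11, edgeR adjusted p = 0.00907), near the 4.63% called lower over all genes. None of the 17 rose, and their median was -0.10. The 649 other tested genes of chromosome 5 had a median of 0.06. Of 9 tested members of the wider cadherin superfamily 2 fell and 0 rose, beside the same 4.63% and 3.21% of all genes. FAT1, a giant atypical cadherin, had 3157, 3774 and 3608 counts in WT and 2181, 2136 and 2046 in knockout (-0.78 ± 0.08, edgeR adjusted p = 0.00497). CLSTN2, a calsyntenin, had 130, 150 and 152 against 58, 52 and 59 (-1.40 ± 0.20, edgeR adjusted p = 0.0120). When each library was left out in turn, FYN and FAT1 passed in 6 of 6 fits, APH1A and RNF14 in 5, and CTNNB1 and CLSTN2 in 1.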

How the data were processed

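Paired-end, strand-marking libraries of ribosome-depleted RNA were made, per the labels' protocols. The authors deposited an estimated count per gene and library, as rounded whole numbers, and an RPKM per gene and library. Per the submitters' processing notes Salmon 1.10.1 and hg19 were used. What each did, the annotation and the use of strand are not given in the sources used here. Count and RPKM together imply a length near a gene's genomic span, and whether intronic reads were counted is not stated. 1 row whose gene name differed between both deposited tables was left out, and 0 columns lacked a sample. Counts were tested on the whole table with edgeR 4.0.16 in R 4.3.3 (filterByExpr, TMM, quasi-likelihood test, Benjamini-Hochberg over 13965 genes, threshold 0.05, 4 residual degrees of freedom). DESeq2 1.42.0 and limma 3.58.1 gave alternatives. In simulated data with 200 of 13965 genes changed, edgeR made 90 calls, 3 of them false, and found 20% of 2-fold and 67% of 4-fold changes. Groups follow the labels. Knockout replicates are numbered in order of deposition. The series text once names HCT116 for the WT cells, where the sample labels give HT1080. Every tested protocadherin was named, and from each list at most the 2 called genes with the largest change and at least 1 CPM, or else the 2 most abundant. WASF1, RAD21, REST, PDS5A, SETDB1 and the untested members were named after their values were seen. Members, lists and rules were chosen with earlier results of these data known. Positions are from GENCODE v29 (GRCh38), in which all 59 members were found.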

Additional observations from a re-analysis of the deposited data

How the results depend on the processing

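Of 492 fits of a tested member under an alternative, 421 kept both sign and side of the threshold, 39 lost the call, 20 gained one and 12 changed sign. The 6 called members kept their sign in all 15 alternatives. All genes called numbered 1095, 2199 with DESeq2, and between 223 and 1899 when 1 library was left out. Members called lower numbered 6, 13 with DESeq2, 3 with limma on log2(RPKM + 0.1), and between 0 and 7 when 1 library was left out. Members called higher numbered 1, PCDH1, in place of 0 with DESeq2, with limma on log2(RPKM + 1) and log2(RPKM + 0.1), with library size alone, with a filter of 1 CPM in 3 libraries and, when 1 library was left out, between 0 and 1. Genes called in the 5 lists numbered 7, 16 with DESeq2, 4 with limma on log2(RPKM + 0.1), and between 2 and 16 when 1 library was left out. The log2 ratio of the unclustered sum, -0.0014, was 0.32 as RPKM, 0.056 with library size alone, and between -0.019 and 0.029 when 1 library was left out. That of the alpha sum, 0.014, lay between -0.044 and 0.10 when 1 library was left out. Members whose log2 fold change turned sign were near 0 or had wide errors. PCDHB12 was at 0.0085 with limma on log2(RPKM + 1) and 0.039 with library size alone. When 1 library was left out, PCDHB12 lay between -0.22 and 0.29, PCDHGA10 between -0.025 and 0.42, PCDHGA11 between -0.60 and 0.67, PCDHGC3 between -0.65 and 0.020 and PCDHGC4 between -0.069 and 0.21. PCDHGA12 lay between -7.31, with the remaining knockout libraries at 0, and 0.027. The cause was not tested. Depth limits members under about 10 counts in a library. No paired analysis was possible because the knockout columns carry no replicate number.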
